A study of Mus musculus with 18 samples.

Results

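The genes described here encode the machinery that copies DNA. They were taken by gene symbol and number 43 of the 43346 genes in the count table, and all 43 were found and tested. Before S phase, the origin recognition complex, Cdc6 and Cdt1 load the hexamer of Mcm2 to Mcm7, the replicative helicase, on origins, while geminin (Gmnn) blocks Cdt1 afterwards. In S phase, Mcm10, Cdc45 and the GINS complex switch the helicase on, polymerase alpha with its primase starts each strand, polymerases delta and epsilon extend it on the PCNA clamp that replication factor C loads, replication protein A covers single-stranded DNA, and Fen1 and Lig1 join Okazaki fragments. Ribonucleotide reductase, thymidylate synthase and thymidine kinase supply nucleotides, and Dut and Ung keep uracil out of DNA. Cells at the crypt base and in the zone above it are known for rapid division, and these genes are used as marks of cells that enter S phase. By role, the 43 genes comprise 11 of origin licensing, 6 of helicase activation, 9 of the primase and polymerases, 6 of the clamp and its loader, 3 of single-strand binding, 2 of Okazaki fragment joining and 6 of nucleotide supply and uracil removal.

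RNA was measured in EPCAM+ cells of untreated mice aged 8 to 20 weeks, of strain C57BL/6 and with the allele given as Lgr5_eGFP_Iris_creERT2 in all groups. This allele places GFP and a tamoxifen-inducible Cre under the Lgr5 locus, and its GFP is patchy, so cells of crypts without GFP were not sampled. Cells with high, medium and low GFP, termed centre, border and row >3 cells, were sorted from the small intestine (SI) and the large intestine (LI), which gave 6 groups of 3 libraries. The labels number the libraries of each group but do not give the mouse behind a number. All levels below are in CPM, the reads of a gene relative to the total of its library after TMM scaling, so that they are relative to the other RNA of the same cells. In bulk samples of this kind, fewer cells in S phase and less RNA per cell cannot be told apart.

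Between 8312093 and 31940965 reads were counted per library, and the 43 genes together took between 0.07% and 0.367% of them. Lgr5 itself followed the sort, with 255, 203 and 120 CPM in the 3 libraries of SI centre cells, 75.7, 98.1 and 7.84 CPM in border and 8.24, 13.5 and 1.4 CPM in row >3 cells, and with 112 to 127, 61.4 to 82.7 and 6.7 to 24 CPM in the same levels of the LI. Replicate 3 of SI border cells was thus within the range of row >3 cells. The replicate 3 libraries of the SI also stood apart in other genes. Genes abundant in the LI and rare in replicate 1 of the SI were there at a median of 64.3% (centre, 47 genes), 84.7% (border, 42 genes) and 79.7% (row >3, 30 genes) of their LI level, against at most 1.63% in replicate 2. Genes abundant in replicate 1 of the SI and rare in the LI were at a median of 54.5% (centre, 37 genes), 18.6% (border, 42 genes) and 34.5% (row >3, 85 genes) of their replicate 1 level, against 98.3%, 104% and 49.6% in replicate 2. These libraries thus went in part against their SI label, and whether they hold LI tissue or were mixed up was not tested. SI results are therefore given with and without replicate 3 where this matters. The replicate 2 libraries of all groups differ from the others by their Y-linked genes (Ddx3y at 599 counts or more, against at most 1 elsewhere). Libraries with the same number deviated together within a site, so a fit that takes this number as a block was run too, and its values are given where they change a call or a count.

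Per kb of exon, Lig1, Pcna and the hexamer subunits other than Mcm2 lay at the top of the list. Averaged over the 18 libraries, Mcm6 was highest with 34.3 CPM per kb, followed by Lig1 with 32.4, Pcna with 30.2 and Mcm7 with 28.3 CPM per kb. At the other end lay Pole2, a small subunit of polymerase epsilon, with 2.49 CPM per kb, Gins3 with 2.72 and Orc1 with 2.9 CPM per kb. Within the hexamer the subunits, which act in equal numbers, differed in RNA level on this scale. In SI centre cells Mcm6 stood at 44.6 ± 11.9 CPM per kb (SD, n = 3) and Mcm2 at 20 ± 4.4, and in LI centre cells at 41.2 ± 1.22 and 16.2 ± 1.86. The low place of Mcm2 depends on its length, the longest of the hexamer (6956 bases, against 4666 for Mcm6). In CPM, its SI centre mean (139) lay below Mcm6 (208) and Mcm7 (170) and above Mcm3 (124), Mcm5 (100) and Mcm4 (98.2). In the clamp loader, Rfc1 (21.3 ± 2.3 CPM per kb in SI centre cells) lay above Rfc4 (11.6 ± 3.68), Rfc5 (7.79 ± 1.37), Rfc2 (7.05 ± 1.3) and Rfc3 (4.58 ± 1.53), of which Rfc5 and Rfc2 differed by less than their SDs. The order of Rfc4, Rfc5 and Rfc2 depends on the division by length (1533, 4669 and 6303 bases). In CPM it was reversed, with means of 17.8, 36.4 and 44.4 in SI centre cells. Lengths are those of all exons of a gene joined, so that isoforms that leave out exons would read too low on this scale.

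**Figure D1:**
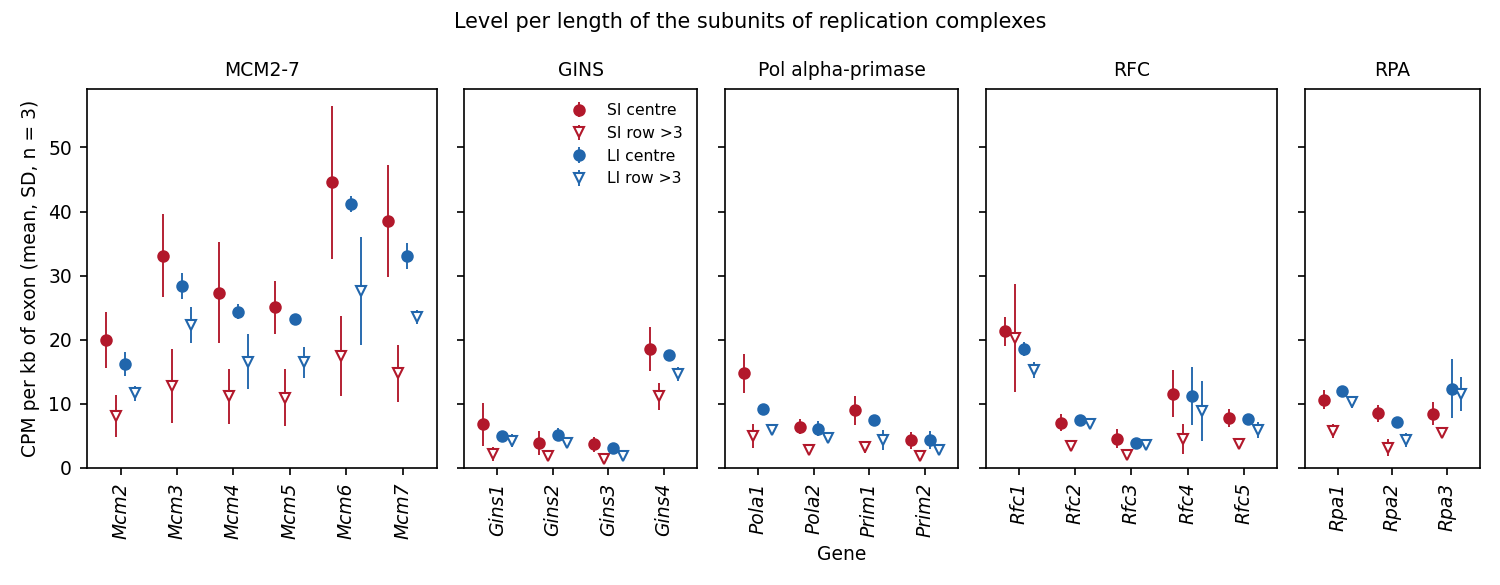
Level of the subunits of 5 replication complexes in CPM per kb of exon (mean and SD of 3 libraries) in centre (filled circles) and row >3 cells (open triangles) of SI (red) and LI (blue). Mcm6 and Mcm7 lie highest in the hexamer in each of these groups, and Rfc1 is the subunit whose SI row >3 mean (20.3 CPM per kb) lies next to its SI centre mean (21.3 CPM per kb).

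Summed over the 43 genes, the level was 2708 ± 549 CPM in SI centre, 2242 ± 558 CPM in SI border and 1240 ± 405 CPM in SI row >3 cells (SD, n = 3 each). In the LI it was 2395 ± 119, 2290 ± 24.2 and 1791 ± 219 CPM. Row >3 cells thus held 45.8% of the centre level in the SI and 74.8% in the LI, and border cells 82.8% and 95.6%. The sums were 3198, 2811 and 2114 CPM in the 3 SI centre libraries and 1200, 1663 and 856 CPM in the SI row >3 libraries, so that these 2 groups did not overlap. In the LI, centre libraries held 2527, 2364 and 2295 CPM and row >3 libraries 1584, 2020 and 1770 CPM, again without overlap. LI border libraries (2313, 2265 and 2293 CPM) lay at the lower end of the centre range or just below it. Replicate 3 had the lowest value of its group for 41 of the 43 genes in SI centre, 39 in SI border and 35 in SI row >3 cells. The same 3 libraries had the highest share of counts from mitochondrial-genome genes, 30.2% to 32.5% against 17.2% to 27% in the others, and its part in these low values was not tested.

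**Figure D2:**
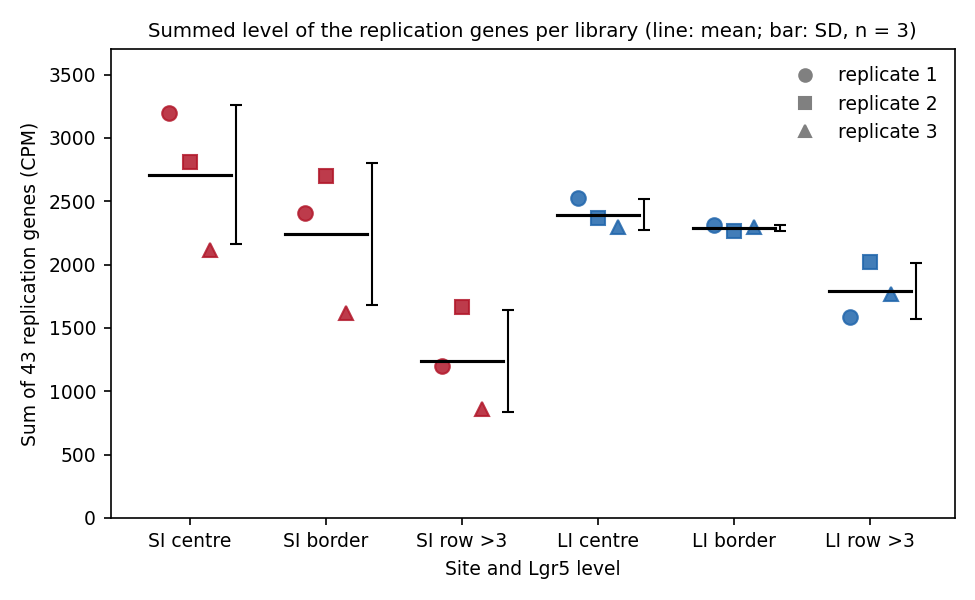
Sum of the 43 replication genes in each of the 18 libraries (CPM), with SI in red and LI in blue, the replicate number as the symbol, the group mean as a line and the SD as a bar (n = 3). SI row >3 libraries lie between 856 and 1663 CPM, below all SI centre libraries, and replicate 3 is the lowest library in each SI group.

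To see how the machinery differs along the Lgr5 gradient of the SI, row >3 cells were compared with centre cells. All 43 genes had a lower estimate in row >3 cells (44.3% of all genes), and 34 were significantly lower, by 1.57- to 3.13-fold (edgeR's quasi-likelihood test, Benjamini-Hochberg adjusted p over 26717 genes), where 5.82% of all genes tested were called lower. The median log2 fold change of the 43 genes was -1.19, against 0 over all genes tested. The libraries of the 2 groups did not overlap for 38 of the 43 genes, a pattern that 12.3% of all genes showed in this direction. Compared within a replicate number, row >3 cells lay below centre cells in all 3 pairs for 42 genes, against 19% of all genes. With the replicate block, 42 genes were called, all but Rfc1, where 10.5% of all genes were called lower. Without replicate 3 of the SI, 37 were called (7.09% of all genes), and DESeq2 called 39 (10.7% of the genes with an adjusted p). Of the 34 genes, 9 lost their call without replicate 1 of centre cells (Orc6, Cdc6, Gins1, Gins3, Gins4, Prim2, Rfc3, Tk1 and Ung), 5 without replicate 1 of row >3 cells (Cdc6, Gmnn, Gins4, Pold3 and Ung), 7 without replicate 3 of row >3 cells (Orc6, Cdc6, Gmnn, Gins1, Gins4, Pold3 and Tk1) and 1, Cdc6, without replicate 2 of centre cells.

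**Figure D3:**
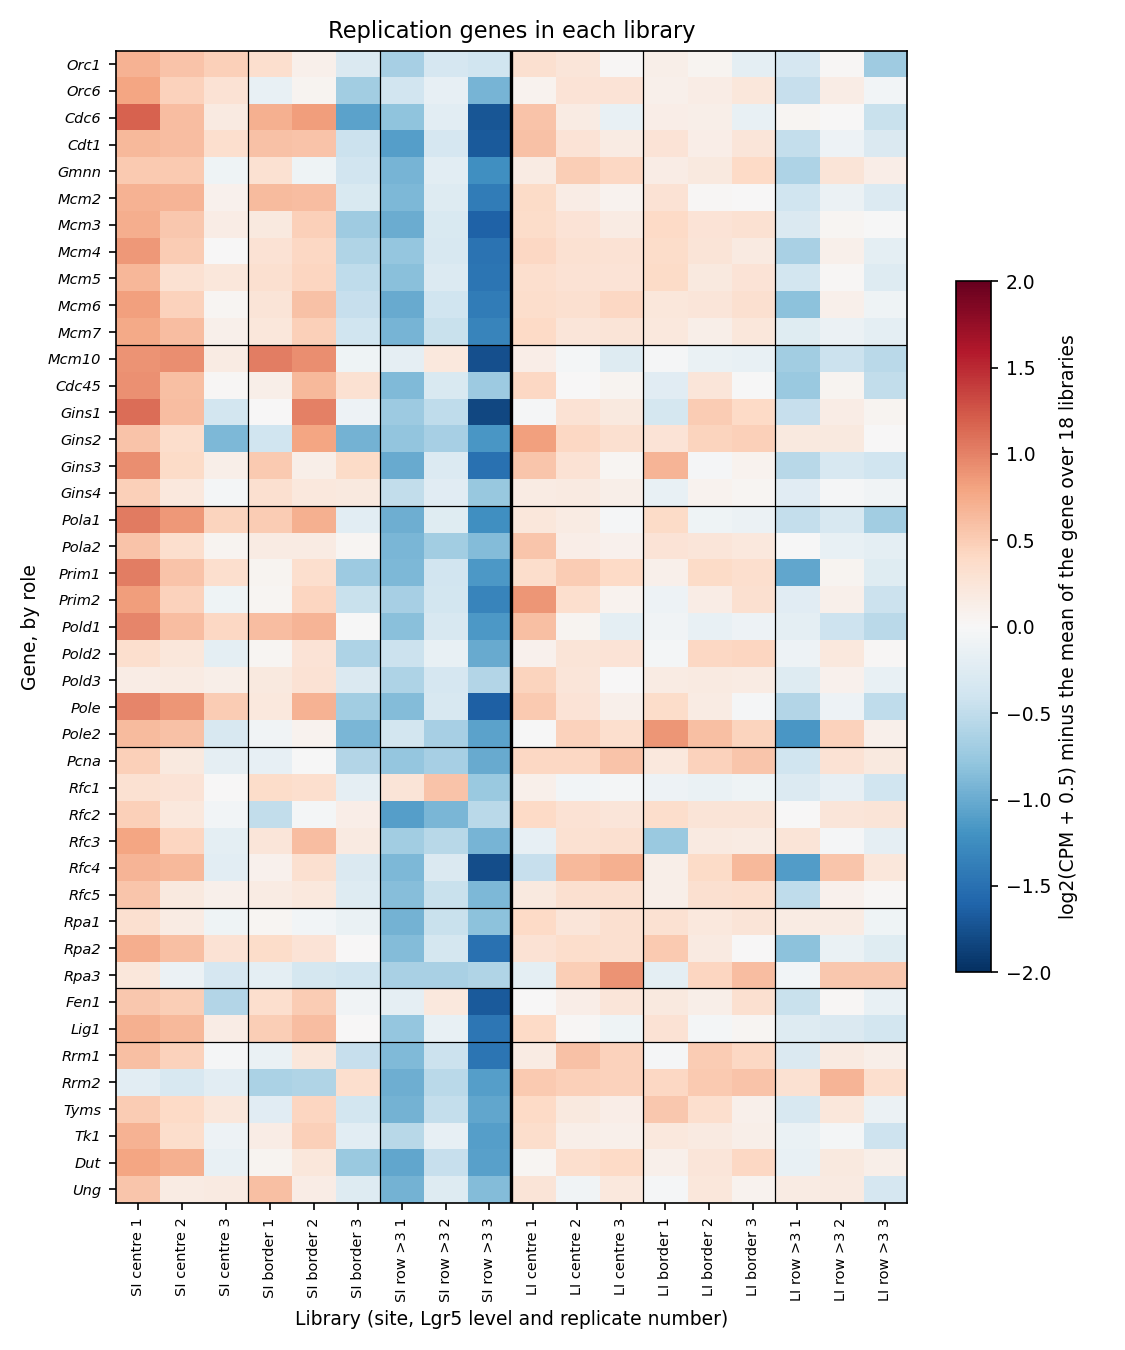
Level of each gene in each library as log2(CPM + 0.5) minus the gene's mean over the 18 libraries, with genes ordered by role and libraries by site, Lgr5 level and replicate number. Within SI replicates 1, 2 and 3, the row >3 column is the lowest of the 3 levels for 43, 41 and 43 of the 43 genes. Rfc1 is an exception in replicate 2, and Rrm2 is lower in SI than in LI centre libraries.

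All 11 licensing genes were significantly lower in SI row >3 than in centre cells, with log2 fold changes from -1.51 to -0.999. Mcm7, a subunit of the helicase hexamer, was measured at 202, 182 and 127 CPM in centre, 138, 165 and 90.2 CPM in border and 62.1, 86.6 and 47.4 CPM in row >3 libraries. All its row >3 libraries lay below all centre and border libraries, and the log2 fold change from centre to row >3 was -1.38 ± 0.216 (SE; edgeR adjusted p = 0.000219). Mcm6, the most abundant member of this group, had 265, 205 and 154 CPM in centre and 74.2, 114 and 56.5 CPM in row >3 libraries (log2 fold change -1.35 ± 0.282, adjusted p = 0.00352). Its highest row >3 library thus stayed below its lowest centre library. Mcm2, Mcm3, Mcm4 and Mcm5 fell by 1.29, 1.36, 1.29 and 1.19 on the log2 scale, so that the hexamer subunits moved together. The loaders Cdt1 and Cdc6 had log2 fold changes of -1.48 (adjusted p = 0.001) and -1.51 (adjusted p = 0.0259), the inhibitor geminin (Gmnn) of -1.10 and the origin recognition subunits Orc1 and Orc6 of -1.10 and -0.999. Cdc6 had the widest error of these genes (SE 0.427) and kept its call in 2 of 6 fits that left out 1 library.

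Of the 6 genes of helicase activation, 4 were lower in SI row >3 cells, namely Cdc45 and the GINS subunits Gins1, Gins3 and Gins4, with log2 fold changes from -1.57 (Gins1) to -0.72 (Gins4). Cdc45 shares 209 bases of exon with the more abundant Ufd1 on the opposite strand. Mcm10, which binds the loaded helicase, was not called (log2 fold change -1.06 ± 0.371, adjusted p = 0.0755). It had 107, 109 and 64.3 CPM in centre, 116, 109 and 53.7 CPM in border and 50.6, 65.9 and 16.6 CPM in row >3 libraries. Its groups overlapped only through replicate 3 of the centre and replicate 2 of the row >3 cells, and with the replicate block it was lower with an adjusted p of 2.62e-05. Gins2, with a log2 fold change of -1.03 and an adjusted p of 0.0768, shares 2758 bases of exon with Gse1 on the opposite strand, a gene with 119 CPM on the library-size scale against 16.2 CPM for Gins2, so that its reads are uncertain.

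Of the primase and polymerase subunits, 7 of 9 were lower, and this group held the smallest adjusted p of the 43 genes and the largest change. Pola2, the second subunit of polymerase alpha, had 62.8, 53.3 and 43.8 CPM in centre, 47.4, 47.4 and 43.1 CPM in border and 22.1, 25.7 and 22.8 CPM in row >3 libraries. Its row >3 libraries lay close together and far below the other groups (log2 fold change to centre -1.18 ± 0.172, 2.26-fold, adjusted p = 0.000117). Pola1, the catalytic subunit of the same enzyme, had 154, 135 and 101 CPM in centre, 105, 121 and 63.8 CPM in border and 37.4, 62.9 and 31.4 CPM in row >3 libraries (log2 fold change to centre -1.56 ± 0.251, adjusted p = 0.000301). It thus fell 2.95-fold, with no overlap of row >3 with centre or border libraries. Pold1, the catalytic subunit of polymerase delta, had 91.3, 70.7 and 61.6 CPM in centre, 70.9, 73.8 and 45.8 CPM in border and 25.6, 36.8 and 20.4 CPM in row >3 libraries (log2 fold change to centre -1.43 ± 0.239, adjusted p = 0.0004). Pole, the catalytic subunit of polymerase epsilon, had the largest change of the 43 genes, with a log2 fold change of -1.65 ± 0.314 (3.13-fold, adjusted p = 0.00181). The primase subunits Prim1 and Prim2 fell by 1.48 and 1.20 on the log2 scale and Pold3, an accessory subunit of polymerase delta, by 0.65. The accessory subunits Pold2 (-0.63, adjusted p = 0.0869) and Pole2 (-1.09, adjusted p = 0.0699) did not pass the test.

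Within the clamp and its loader, 4 of 6 genes were lower, namely Pcna, Rfc2, Rfc3 and Rfc5, of which Rfc5 shares 499 bases of exon with the somewhat more abundant Wsb2 on the opposite strand. Pcna, the sliding clamp, had 96.4, 79.1 and 60.4 CPM in centre and 40, 43.2 and 33.9 CPM in row >3 libraries (log2 fold change -1.01 ± 0.203, adjusted p = 0.00187). Rfc2 had 52.7, 44.2 and 36.4 CPM in centre, 26.9, 36.9 and 41.9 CPM in border and 17.4, 20 and 26.1 CPM in row >3 libraries (log2 fold change -1.08 ± 0.194, adjusted p = 0.000726). In border and row >3 cells, replicate 3 was the highest library of Rfc2, against its place for most of the 43 genes. Rfc4 had a log2 fold change of -1.31 and an adjusted p of 0.0514, and its exons share 194 bases with Eif4a2 on the opposite strand, which is far more abundant. Rfc1, the large subunit of the loader, was the exception of the list. It had 138, 135 and 112 CPM in centre, 144, 141 and 98.3 CPM in border and 134, 166 and 66.5 CPM in row >3 libraries. Replicates 1 and 2 of row >3 cells thus lay near or above the centre libraries and replicate 3 below them, with a log2 fold change of -0.07 ± 0.22 (adjusted p = 0.968), which became 0.15 without replicate 3 of the SI (adjusted p = 0.673) and 0.24 without the replicate 3 library of row >3 cells alone.

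Rpa1, the large subunit of replication protein A, had 67, 60.4 and 50.6 CPM in SI centre, 55.3, 52 and 49.1 CPM in border and 27.8, 39.3 and 30.1 CPM in row >3 libraries, a log2 fold change of -0.87 ± 0.163 to centre (adjusted p = 0.000978). Rpa2 fell by 1.41 on the log2 scale (adjusted p = 0.000837), while the smallest subunit Rpa3, at 6.18 to 6.44 CPM in row >3 and 7.85 to 11.9 CPM in centre libraries, did not pass the test (-0.62, adjusted p = 0.203). Lig1, the ligase of Okazaki fragments, had 213, 206 and 145 CPM in centre, 184, 200 and 131 CPM in border and 76.5, 118 and 47.6 CPM in row >3 libraries (log2 fold change -1.22 ± 0.244, adjusted p = 0.00203). Its call was lost when only the 2 groups compared were fitted. The flap nuclease Fen1 was not called (-0.58 ± 0.348, adjusted p = 0.364). On the opposite strand its exons share 130 bases with Tmem258 and 1909 bases with Gm10143, which had 0.392 CPM on the library-size scale.

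In nucleotide supply, 5 of 6 genes were lower, namely Rrm1, Tyms, Tk1, Dut and Ung. Rrm1, the large subunit of ribonucleotide reductase, had 140, 127 and 90.4 CPM in centre, 84.1, 108 and 67 CPM in border and 49.4, 67.9 and 33.1 CPM in row >3 libraries (log2 fold change to centre -1.24 ± 0.24, adjusted p = 0.00136). Rrm2, the small subunit of the same enzyme, had 32.3, 29.8 and 32.3 CPM in centre, 24, 24.5 and 47.4 CPM in border and 18.8, 25.6 and 17.2 CPM in row >3 libraries. Its row >3 libraries lay below all centre libraries, but its log2 fold change of -0.61 ± 0.221 was not significant (adjusted p = 0.0746; 0.0396 with the replicate block). Dut, which removes dUTP, fell 2.56-fold (adjusted p = 0.0011), and thymidylate synthase (Tyms) 2.28-fold (adjusted p = 0.000841).

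**Figure D4:**
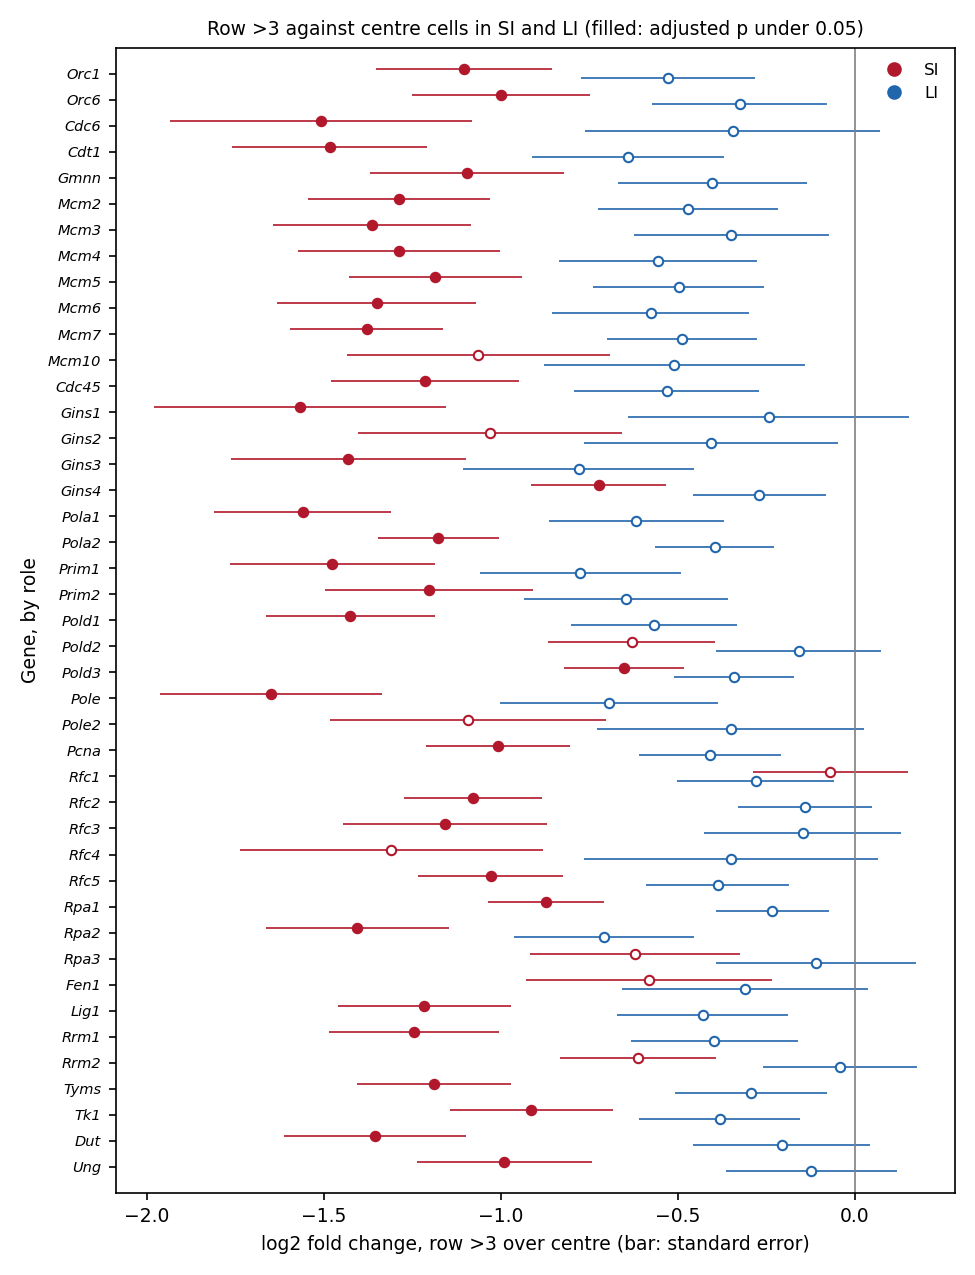
Log2 fold change of row >3 over centre cells with its standard error for each of the 43 genes, in SI (red) and LI (blue), where filled points have an adjusted p under 0.05. All 43 estimates lie below 0 in both sites, 34 are called in the SI and 0 in the LI, and Rfc1 lies at -0.07 in the SI.

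Other genes of the same process and of the cell cycle, taken as lists, were read from the same fit. In the comparison of SI row >3 with centre cells, 5.82% of all genes were called lower and 7.35% higher. Of 43 other replication factors, 24 were lower and 1 was higher in SI row >3 cells, with a median log2 fold change of -0.95. The lower genes with the smallest p were Shmt1, which feeds thymidylate synthesis (-1.57, adjusted p = 1.88e-05), the nuclease-helicase Dna2 (-1.5) and the fork protection factor Tipin (-1.40). The gene that was higher, Samhd1 (1.18, adjusted p = 0.000531), encodes an enzyme that degrades deoxynucleotides. Of 25 genes of E2F control and S phase entry, 10 were lower and 3 higher. Among them Myc fell by 1.49 on the log2 scale, while the cyclin-dependent kinase inhibitor Cdkn1a (3.58), E2f2 (1.40) and the retinoblastoma gene Rb1 (1.17) were higher. Of 24 mitosis genes, 11 were lower with a median of -0.87, and 24 with the replicate block, where 10.5% of all genes were called lower. Mki67, a general mark of cycling cells, had a log2 fold change of -0.73 ± 0.229 (adjusted p = 0.0423).

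Markers of other cells moved in the same comparison. Summed over 8 goblet cell markers, the level was 689, 1190 and 11278 CPM in the 3 SI centre libraries and 33642 to 50795 CPM in row >3 libraries, with 6 of 8 called higher (7.35% of all genes) and 1, Clca1, lower (5.82%). Muc2, their defining mucin, was at 362 CPM or more in every library. The sum of 10 absorptive markers was 362 to 526 CPM in SI centre and 1169 to 3748 CPM in row >3 libraries, with 5 of 10 called higher, and 9 with the replicate block (12.4% of all genes). The highest sum was that of replicate 3, where the markers Car1 and Slc26a3 had 1939 and 382 CPM. In replicates 1 and 2 of row >3 cells, Car1 had 2.89 and 10.4 CPM and Slc26a3 45.4 and 17.7 CPM. In the LI, goblet markers summed to 7983 to 13241 CPM in centre and 17147 to 26423 CPM in row >3 libraries, and absorptive markers to 473 to 579 CPM and 1271 to 1860 CPM, both without overlap. Car1 held 123 to 232 CPM of the absorptive sums in LI centre and 795 to 1348 CPM in row >3 libraries. In this LI comparison 0 markers of either list were called. With the replicate block, 2 of 10 absorptive markers were called higher and 1 of 8 goblet markers lower (1.31% of all genes lower). The 9 enteroendocrine markers summed to 45.9, 288 and 18.4 CPM in SI centre and 414, 610 and 85.6 CPM in row >3 libraries, higher within each replicate number, with 1 called higher and 6 with the replicate block. In the LI their sums overlapped (161 to 275 CPM in centre and 121 to 306 CPM in row >3 libraries). The 8 tuft cell markers summed to 31.9, 37.5 and 428 CPM in SI centre and 371, 404 and 98.3 CPM in row >3 libraries, so that they were higher in row >3 cells in replicates 1 and 2 and lower in replicate 3, and their sums overlapped in the LI (154 to 235 and 136 to 160 CPM). Paneth markers summed to 1701 to 7867 CPM in SI centre and 216 to 4628 CPM in row >3 libraries, and to at most 12.6 CPM in any LI library. Their part in the lower levels of replication genes was not tested. The 9 immune markers summed to at most 30.6 CPM and the 8 stromal markers to at most 18.3 CPM in any library, and Cd3e and Col1a1 were at 0 in 3 SI centre libraries and 1 SI centre library, respectively.

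In border cells of the SI, 0 of the 43 genes were called against centre cells by edgeR or DESeq2, and 0.0112% of all genes were called in either direction. The estimates of 40 genes were below 0 (46.6% of all genes), with a median log2 fold change of -0.28, and 5 had an unadjusted p under 0.05, all lower, where 3.59% of all genes were lower at that level. With the replicate block, 4 were called lower, namely Orc6 (-0.79, adjusted p = 0.0336), Dut (-0.62, adjusted p = 0.032), Pole (-0.72, adjusted p = 0.0293) and Rrm1 (-0.47, adjusted p = 0.0404), against 0.767% of all genes. Of these, 1 (Dut) was still called with the block when replicate 3 of the SI was left out (adjusted p = 0.0351; 0.546% of all genes), and Orc6, Pole and Rrm1 had adjusted p of 0.135, 0.206 and 0.0571. Orc6 had 23, 18.2 and 16.1 CPM in centre and 11.8, 13.6 and 7.89 CPM in border libraries, without overlap, although its exons share 171 bases with the more abundant Vps35 on the other strand. Prim1 (44.3, 32.3 and 27.5 CPM against 22.5, 27.4 and 12.8 CPM) and Orc1 (16, 14.7 and 13.6 CPM against 12.4, 10.4 and 7.89 CPM) were likewise without overlap, which makes 3 of 43 genes against 4.9% of all genes, and the libraries of Dut and Pcna overlapped. Within a replicate number, border lay below centre cells in all 3 pairs for 22 genes, against 12.9% of all genes.

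From border to row >3 cells of the SI, 9 genes were lower, namely Pola1, Pola2, Pold1, Mcm2, Mcm7, Cdt1, Rpa1, Rpa2 and Lig1, where 0.764% of all genes were called lower. The median log2 fold change of the 43 genes was -0.87. Pola2 had the smallest adjusted p (-0.96 ± 0.172, adjusted p = 0.0113), followed by Pold1 (-1.19 ± 0.239, adjusted p = 0.0148). Cdt1, the loader of the helicase, had 56.7, 56.2 and 27.9 CPM in border and 17.4, 29.8 and 11.4 CPM in row >3 libraries, where replicate 3 of border cells fell within the range of row >3 cells. This count moved with single libraries. It was 2, 0 and 30 without replicate 1, 2 or 3 of border cells, where 0.315%, 0.0188% and 2.57% of all genes were called lower. Without replicate 1, 2 or 3 of row >3 cells it was 0, 22 and 3, against 0.0113%, 1.31% and 0.625% of all genes. It was 36 with the replicate block (4.33% of all genes) and 28 without replicate 3 of the SI (2.56%).

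In the LI, no replication gene was called in any comparison of levels without the replicate block, by edgeR or DESeq2. In LI row >3 cells all 43 estimates were below those of centre cells (46.5% of all genes), with a median log2 fold change of -0.39, and the libraries of 22 genes did not overlap, a pattern that 7.07% of all genes showed in this direction. An unadjusted p under 0.05 was reached by 11 genes, where 3.76% of all genes were lower at that level, and 0.0187% of all genes were called lower. With the block, 4 genes were called lower (1.31% of all genes), namely Mcm7 (-0.49, adjusted p = 0.0247), Pola1 (-0.62, adjusted p = 0.0307), Pole (-0.69, adjusted p = 0.0324) and Prim1 (-0.80, adjusted p = 0.0364), 3 of them subunits of polymerases or primase. Rpa2 had the smallest p of the fit without the block, with 21.1, 22.1 and 21.6 CPM in centre and 9.53, 15.7 and 14.4 CPM in row >3 libraries (-0.71 ± 0.253, adjusted p = 0.548). Pola1 had 87, 83.2 and 72.8 CPM in centre, 96.7, 70.1 and 68.6 CPM in border and 53.3, 59.4 and 45.7 CPM in row >3 libraries. Prim1 had 27.6, 30.8 and 28.7 CPM in centre, 23.2, 28.3 and 27.4 CPM in border and 10.2, 22.5 and 18.1 CPM in row >3 libraries. For both genes all row >3 libraries lay below all libraries of the other levels. Gins3 had 10.2, 8.38 and 7.02 CPM in LI centre and 4.47, 5.32 and 5.04 CPM in row >3 libraries, and Pold1 69.9, 47.7 and 40.1 CPM against 40.3, 34.6 and 31.4 CPM, where the groups overlapped. Within a replicate number, LI row >3 cells lay below centre cells in all 3 pairs for 36 genes (15.4% of all genes). In replicate 1 the median row >3 level was 62.5% of the centre level, against 85.8% in replicate 2 and 78.1% in replicate 3.

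LI border and centre cells were closest to each other. The median log2 fold change was -0.07, the estimates ran from -0.34 (Prim2) to 0.39 (Pole2), and 0 genes had an unadjusted p under 0.05, where 0.633% of all genes were lower at that level. Pole2 had 6.56, 9.28 and 8.4 CPM in centre and 12.5, 10.3 and 9.11 CPM in border libraries, with overlap. Against border cells, LI row >3 cells had a median log2 fold change of -0.36, with 5 genes at an unadjusted p under 0.05 (Rpa2, Gins3, Pola1, Prim1 and Pola2, all lower, against 2.08% of all genes) and 24 without overlap of libraries (5.18% of all genes). In both comparisons with border cells 0% of all genes were called, and 0 of the 43 genes with edgeR and the block or with DESeq2.

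Whether the change from centre to row >3 differs between the sites was tested by the interaction of site and level. The median difference of the log2 fold changes, SI minus LI, was -0.70, and 42 of 43 estimates were below 0, against 46.8% of all genes. Without the block 0 genes were called by edgeR or DESeq2 (0% of all genes by edgeR), although 19 had an unadjusted p under 0.05, all lower, where 2.49% of all genes were lower at that level. With the block 13 were called, all with a stronger fall in the SI, where 0.808% of all genes were called in this direction. They were Cdc6, Mcm2, Mcm3, Mcm7, Pola1, Pola2, Pold1, Pole, Rfc2, Lig1, Rrm1, Tyms and Dut, with differences from -1.27 (Cdc6) to -0.79 (Pola2). Gins1 had a larger estimate (-1.38) that did not pass the test (adjusted p = 0.0635). Without replicate 3 of the SI and without the block, 4 were called (0.699% of all genes), namely Dut (-1.27, adjusted p = 0.00604), Rfc2 (-1.22, adjusted p = 0.0044), Pola2 (-0.87, adjusted p = 0.047) and Mcm7 (-0.86, adjusted p = 0.0215). With the block and without replicate 3 of the SI, 17 were called, all lower, against 2.19% of all genes. Dut had 64.6, 61.4 and 33.4 CPM in SI centre and 17.9, 26.8 and 17.3 CPM in SI row >3 libraries, against 38.3, 47.1 and 49 CPM and 33.7, 42.6 and 40.3 CPM in the LI, where the groups overlapped. For the change from centre to border the interaction gave 0 calls with edgeR, with or without the block, and with DESeq2 (0% of all genes by edgeR without the block), and 0 genes at an unadjusted p under 0.05 (2.65% of all genes in either direction).

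SI and LI were also compared at the same Lgr5 level. In centre cells the 43 genes had a median SI over LI change of 0.17 on the log2 scale (0.38 without replicate 3 of the SI) and 0 genes were called by edgeR, where 1.99% of all genes were called in either direction. DESeq2 called 1, Rrm2, lower. An unadjusted p under 0.05 was reached by Rrm2 (lower in the SI), Pola1 and Pold1 (higher in the SI), 3 of 43 genes against 14.5% of all genes in either direction. The LI libraries of Rrm2 lay at 54.2, 52.2 and 51.6 CPM, all above the SI centre libraries (32.3 CPM at most). With a block over all libraries Rrm2 was called lower (-0.74, adjusted p = 0.0412; 3.06% of all genes) and Pola1 higher (0.66, adjusted p = 0.0363; 2.55% of all genes). Without replicate 3 of the SI, 7 genes were called higher in SI centre cells (4.51% of all genes), namely Cdc6, Mcm2, Mcm10, Pola1, Pold1, Pole and Lig1, and Rrm2 lower (6.39%). Of these, Mcm10 had the smallest adjusted p (1.01, adjusted p = 7.59e-05), with 107 and 109 CPM in replicates 1 and 2 of the SI against 62.8, 55.4 and 47.9 CPM in the LI.

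In border cells the median was -0.08, which turned to 0.14 without replicate 3 of the SI, and 0 genes were called by edgeR, also with the block, and 1, Rrm2, by DESeq2, where 1.75% of all genes were called in either direction. At an unadjusted p under 0.05, 4 genes were lower (Rrm2, Pcna, Pole2 and Rpa3) and 2 higher in the SI (Pold1 and Mcm10), against 13.9% of all genes in either direction. Without replicate 3 of the SI, Cdc6, Mcm2, Mcm10, Pold1 and Rfc1 were called higher (3.7% of all genes) and Rrm2 lower (4.4%). Pcna had 61, 68.2 and 45.6 CPM in SI border and 79.5, 95.1 and 102 CPM in LI border libraries, without overlap (-0.66 ± 0.203, adjusted p = 0.104).

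In row >3 cells 8 genes were lower in the SI, where 1.32% of all genes were called lower, and the median log2 fold change of the 43 genes was -0.62 (-0.31 without replicate 3 of the SI). The 8 genes were both subunits of ribonucleotide reductase, Dut, Pcna and Rfc2, the replication protein A subunits Rpa1 and Rpa3, and Pola2. Rrm2 was 2.48-fold lower (-1.31 ± 0.223, adjusted p = 0.00104), with 46.2, 60.1 and 47.2 CPM in the LI against 25.6 CPM at most in the SI. In the LI, the means of Rrm2 over the gradient differed by less than the SD of its row >3 libraries, with 52.7 ± 1.36 CPM in centre, 53.3 ± 3.02 in border and 51.2 ± 7.74 CPM in row >3 cells (SD, n = 3). Rfc2 had 38.3, 45.1 and 45.2 CPM in LI row >3 libraries, all above the SI (-1.03 ± 0.194, adjusted p = 0.00283). Rpa1 had 60.6, 60.5 and 50.9 CPM and Pcna 52.1, 83.7 and 79.2 CPM in the LI, and both were above all SI row >3 libraries (Rpa1 -0.82, adjusted p = 0.00425; Pcna -0.87, adjusted p = 0.0141). Rpa3 was at 9.66, 14.8 and 14.8 CPM in LI row >3 libraries (-1.06, adjusted p = 0.0431). The count of 8 was 2, 13 and 4 without replicate 1, 2 or 3 of SI row >3 cells (0.279%, 0.904% and 2.45% of all genes), with Rfc1 called higher in the last of these fits. It was 9, 3 and 3 without replicate 1, 2 or 3 of LI row >3 cells (1.42%, 0.525% and 0.583% of all genes). Rrm2 and Rfc2 kept their call in all 6 of these fits, Rpa1 in 5, Pola2 in 3 and Pcna and Rrm1 in 2. Rpa3 and Dut lost theirs in most of them. With the block over all libraries the count was 11, with Mcm3, Mcm7 and Tyms added (3.03% of all genes). Without replicate 3 of the SI, 9 genes were lower (5.36% of all genes) and 2, Mcm10 (0.64, adjusted p = 0.00775) and Rfc1 (0.76, adjusted p = 0.000324), were higher in the SI (6.8%).

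**Figure D5:**
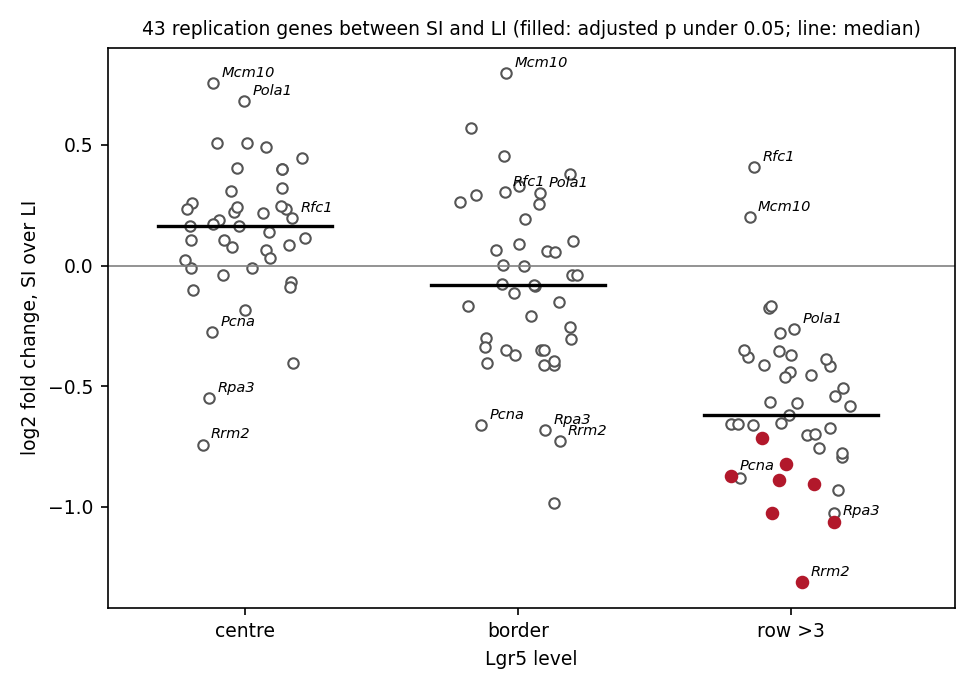
Log2 fold change of SI over LI for the 43 genes (points) in centre, border and row >3 cells, with the median as a line and genes with an adjusted p under 0.05 filled. The median runs from 0.17 in centre over -0.08 in border to -0.62 in row >3 cells (0.38, 0.14 and -0.31 without replicate 3 of the SI, not drawn), where 8 genes are called lower in the SI, and Rrm2 is below 0 at each level.

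Because these genes moved together, their promoters were read for the letters of the E2F site, the element through which E2F factors switch on genes of S phase. RefSeq windows (assembly GRCm38.p6) from 250 bases before to 50 after the start were at hand for 35 of the 43 genes. The letters TTTCCCGC, TTTGGCGC, TTTCGCGC or TTTGCCGC, which may overlap each other, stood on either strand in the windows of 14 genes (40%), against 2.61% of 27025 genes. The 14 genes were Cdc6, Cdt1, Orc1, Mcm3, Mcm5, Mcm6, Mcm7, Gins3, Pola1, Pold1, Pold3, Pole2, Rfc3 and Lig1. The box CCAAT, on either strand, stood in 21 of the 35 (60%) against 41.1% of all genes, and 8 genes held both. The median GC content of the members' windows was 60.7%, against 52.7% for all windows. Of the 14 genes with E2F-type letters 13 were called lower in SI row >3 against centre cells, with a median log2 fold change of -1.36, and of the 21 without them 14 were called, with a median of -1.03. These counts were not tested.

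To show where these letters stand, a stretch of 110 bases before the start is given for each gene, 5′ to 3′ on the strand of the gene, with E2F-type letters on either strand in capitals. Its last base lies at position -39 from the start in Cdc6 and Pola1, -54 in Mcm5, -66 in Mcm7 and -1 in the other 4 genes. The first 6 genes carry the letters and fell in SI row >3 cells, Pcna fell without them in this stretch, and Rfc1 has neither the letters nor a called change. The genes shown were picked as examples and do not stand for the whole list. Pole2 carries the letters and was not called, and 14 of the 21 genes without them were called. Orc1 lies at chr4:108579344-108579453 (+), Cdc6 at chr11:98908003-98908112 (+), Mcm5 at chr8:75109346-75109455 (+), Mcm6 at chr1:128359706-128359815 (-), Mcm7 at chr5:138171949-138172058 (-), Pola1 at chrX:93632194-93632303 (-), Pcna at chr2:132253181-132253290 (-) and Rfc1 at chr5:65335640-65335749 (-).
Orc1: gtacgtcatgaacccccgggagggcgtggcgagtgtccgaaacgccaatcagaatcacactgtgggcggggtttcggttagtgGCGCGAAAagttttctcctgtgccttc
Cdc6: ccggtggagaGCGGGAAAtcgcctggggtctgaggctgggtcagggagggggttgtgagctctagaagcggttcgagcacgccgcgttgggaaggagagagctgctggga
Mcm5: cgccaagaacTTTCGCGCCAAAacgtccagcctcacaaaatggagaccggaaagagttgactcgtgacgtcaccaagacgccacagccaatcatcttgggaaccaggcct
Mcm6: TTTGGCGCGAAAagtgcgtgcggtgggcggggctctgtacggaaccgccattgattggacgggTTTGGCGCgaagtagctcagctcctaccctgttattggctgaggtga
Mcm7: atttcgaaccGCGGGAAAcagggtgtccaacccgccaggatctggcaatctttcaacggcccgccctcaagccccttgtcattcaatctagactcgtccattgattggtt
Pola1: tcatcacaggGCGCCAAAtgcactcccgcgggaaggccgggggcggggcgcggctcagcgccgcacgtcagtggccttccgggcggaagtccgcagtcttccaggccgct
Pcna: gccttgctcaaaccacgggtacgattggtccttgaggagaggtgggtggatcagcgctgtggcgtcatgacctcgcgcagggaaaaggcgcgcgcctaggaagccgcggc
Rfc1: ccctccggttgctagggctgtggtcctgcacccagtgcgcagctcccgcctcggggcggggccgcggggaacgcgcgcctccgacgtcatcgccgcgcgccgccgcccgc
In Mcm6 and Mcm5 a pair of such sites overlaps on opposite strands, and Mcm6 holds a further one.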

How the data were processed

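Per the paper's methods, the authors trimmed reads of stranded SMART-Seq libraries and used STAR to align them to mm10 and to count them per gene. They deposited raw counts and, in a second table, a signal that is each count divided by a size factor of its library. The submitters' processing notes name bcl2fastq and DESeq2. No source used here gives the annotation release or the counted strand, so genes that overlap another gene are uncertain. Besides the overlaps named with their genes, Mcm7 shares 321 bases of exon with Ap4m1, Rfc2 952 with Lat2 and Lig1 247 with Zswim9. Each of these partners lies on the opposite strand and was less abundant than the replication gene.

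The raw counts were tested with edgeR 4.0.16 (glmQLFit with its robust option, TMM factors) in R 4.3.3, in 1 fit of the 6 groups over the 26717 genes with a mean count above 0 (12 residual degrees of freedom), which was tested on simulated data first. The simulated libraries were drawn independently, so that test does not cover deviations shared by libraries of the same number. Calls needed an adjusted p under 0.05 (Benjamini-Hochberg, over all these genes). DESeq2 1.42.0, the tool of the paper's methods, and other filters, scalings and left-out libraries were alternatives, and the signal was an alternative scale for summed levels. Per the paper's methods the 3 libraries of a group are biological replicates, and the sources used here do not say which mouse gave which replicate number.

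Equal replicate numbers were taken as pairs within a site. The reason was that deviations of such libraries from their group means correlated across 15998 genes in all 18 pairs of libraries (r from 0.215 to 0.668). Between SI and LI at the same level r lay between -0.03 and 0.198 and passed 0.1 in 5 of 9 pairs, so the block over all libraries is only an alternative there.

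Members, lists and tests were chosen with earlier results of these data known. Each library's value is given for the most abundant member of each role and for up to 5 members with the smallest unadjusted p in a comparison, and genes of other lists are named for at most 4 per list and comparison, besides Lgr5, Mki67 and defining markers. Lengths and overlaps came from GENCODE release M21 (42462 of 43346 identifiers matched), promoter windows from RefSeq (GRCm38.p6). Figures were drawn with matplotlib 3.10.9 in Python 3.11.15.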

Additional observations from a re-analysis of the deposited data

Results flagged for a closer look

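The difference between the sites in the change from centre to row >3 cells was found with the replicate block and not without it. With the block, 13 of the 43 genes were called, each with a stronger fall in the SI (0.808% of all genes in that direction). Among these 13, the difference was largest for Cdc6 (-1.27 on the log2 scale, edgeR adjusted p = 0.0398) and Dut (-1.16, adjusted p = 0.00929), while Gins1, which was not called, had -1.38 (adjusted p = 0.0635). Without the block 0 were called and 19 had an unadjusted p under 0.05. Without replicate 3 of the SI, 4 were called without the block (0.699% of all genes) and 17 with it (2.19%). The summed goblet markers and the summed absorptive markers were higher in all row >3 than in all centre libraries of both sites, although in the LI 0 of these markers were called without the block. Their part in this difference was not tested.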

How the results depend on the processing

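The count of 34 lower genes in SI row >3 against centre cells lay between 25 and 39 when each library was left out in turn, and within 1.5 times of 34 in the other alternatives run. Rfc1 turned from -0.07 to 0.15 on the log2 scale without replicate 3 of the SI, to 0.14 with the block added, and lay between -0.35 and 0.24 with single libraries left out. The count of 9 from border to row >3 cells of the SI was 18 with filterByExpr, 3 with library size only, 14 with the legacy quasi-likelihood fit, 0 with only the groups compared, 28 without replicate 3 of the SI, 26 with DESeq2, 36 with the replicate block, 31 with the block and without replicate 3 of the SI, and 0 to 30 with single libraries left out. The block also gave 4 calls in SI border against centre (1 without replicate 3 of the SI), 4 in LI row >3 against centre, 2 in SI against LI centre cells and 13 in the interaction at row >3, where leaving out replicate 3 of the SI gave 17 with the block and 4 without it. In SI against LI centre cells there was 1 call with only the groups compared, 1 with DESeq2 and 8 without replicate 3 of the SI. In border cells there was 1 with DESeq2, 6 without replicate 3 of the SI and 0 to 1 with single libraries left out. The count of 8 in row >3 cells was 5 each with no filter, RLE factors, library size only and only the groups compared, 3 with a log2 fold change over 1, and 2 to 13 with single libraries left out. Mcm10 there lay between -0.19 and 0.61. The causes of these shifts were not tested. Where no share of all genes is given for an alternative, its count covers the 43 genes alone. Such a count does not show whether all genes moved alike. The legacy fit, and leaving out replicate 3 of the SI together with the block, were chosen after the data were seen. Of the lists counted in SI row >3 against centre cells, the block moved mitosis genes from 11 to 24 lower. Those called higher went from 5 to 9 for absorptive markers and from 1 to 6 for enteroendocrine markers. It changed no other count of the 43 genes by more than 1.5 times. In SI row >3 against centre cells, the widest errors were those of Rfc4 (SE 0.429), Cdc6 (0.427) and Gins1 (0.412). These genes had 45 to 555, 70 to 1104 and 20 to 388 counts per library.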
